A study of Mus musculus with 30 samples.

Results

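The interferon regulatory factors (IRFs) are a family of DNA-binding proteins that carry type I interferon (IFN-I) signals into transcription. The transcripts of 7 IRF genes, Irf1, Irf2, Irf3, Irf5, Irf7, Irf8 and Irf9, were followed across 30 whole tumors. They were taken by gene symbol, with no use of their levels, from the 39676 gene identifiers counted, and all 7 had a row and passed the filter on low counts. The tumors came from B16-F10 mouse melanoma cells, transduced one vector after another by retrovirus and sorted as cell lines. All 3 lines carried enhanced GFP, herpes simplex virus glycoprotein B (gB) with CFP, and firefly luciferase (luc) with puromycin resistance. B16.GFP.gB.luc cells had the GFP vector alone, whereas in B16.IFNα4.gB.luc cells it also encoded mouse IFNα4, and in B16.IFNα9.gB.luc cells mouse IFNα9, under a viral LTR promoter. Cells were placed under the skin of female C57BL/6 mice, typically aged 8 to 12 weeks, and tumors (GFP tumors, IFNα4 tumors and IFNα9 tumors, 10 of each) were collected on day 8. The IFN was thus secreted by the melanoma cells from the time of inoculation, 1 line stood for each type, and the RNA held melanoma, immune and stromal transcripts together.

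IRF3, IRF5 and IRF7 rest in the cytosol until pattern recognition receptors trigger their phosphorylation, after which they switch on IFN-I and cytokine genes. IRF9 is the DNA-binding subunit of ISGF3, the complex that binds the IFN-stimulated response element (ISRE) of IFN-stimulated genes (ISGs) once the IFN-I receptor is engaged. IRF1 is an activator whose own gene is induced through GAS sites, IRF2 binds the same DNA element and often opposes it, and IRF8 is largely restricted to hematopoietic cells, where it directs monocytes and dendritic cells.

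The labels of the tumors matched the vectors, since Ifna4 was counted in each IFNα4 tumor and in no other tumor, and Ifna9 in each IFNα9 tumor and in no other tumor. Total counts per tumor lay between 14598517 and 19788383. Levels are CPM (counts scaled to a common library size) after TMM normalization, and genes were called by edgeR's quasi-likelihood test at an adjusted p (Benjamini-Hochberg over 15926 genes) under 0.05. GFP tumor 7 stood apart, with the smallest total, the smallest TMM factor (0.768) and the lowest leukocyte score (5.61). Every call of an IRF gene against GFP tumors was also made without that tumor. The melanocyte genes Tyr, Tyrp1 and Mitf together made up at least 2157 CPM in every tumor.

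The promoters of the IRF genes were searched for the ISRE core (GAAA, any 2 bases, GAAA) and the GAS core (TTC, any 3 bases, GAA), on both strands, in RefSeq windows of 300 bases on GRCm38.p6. At least 1 ISRE core stood in 3.44% of 32851 such windows and a GAS core in 8.30%. Matches were found for 3 of the 7 genes, and these windows are shown 5′ to 3′ on the strand of the gene, with the matches in capitals. The start of the transcript follows base 250, and no base lies at position 0. The window of Irf1 (chr11:53769764-53770063, + strand) held a GAS core whose first base lay 90 bases before the start, and that of Irf8 (chr8:120736108-120736407, + strand) held GAS cores 171 and 153 bases before it. In the window of Irf2 (chr8:46739495-46739794, + strand), an ISRE core lay 241 bases and a GAS core 224 bases before the start.
Irf1: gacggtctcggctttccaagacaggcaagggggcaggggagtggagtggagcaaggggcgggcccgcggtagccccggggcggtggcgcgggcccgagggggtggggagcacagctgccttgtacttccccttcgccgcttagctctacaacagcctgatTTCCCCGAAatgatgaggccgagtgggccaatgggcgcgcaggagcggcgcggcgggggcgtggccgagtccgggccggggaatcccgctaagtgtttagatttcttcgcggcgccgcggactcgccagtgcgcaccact
Irf2: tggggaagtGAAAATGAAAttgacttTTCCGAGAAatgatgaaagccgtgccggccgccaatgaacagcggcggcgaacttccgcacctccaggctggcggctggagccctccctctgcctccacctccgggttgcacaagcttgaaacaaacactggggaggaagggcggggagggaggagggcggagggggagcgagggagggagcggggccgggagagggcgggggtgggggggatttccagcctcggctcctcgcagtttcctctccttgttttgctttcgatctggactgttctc
Irf8: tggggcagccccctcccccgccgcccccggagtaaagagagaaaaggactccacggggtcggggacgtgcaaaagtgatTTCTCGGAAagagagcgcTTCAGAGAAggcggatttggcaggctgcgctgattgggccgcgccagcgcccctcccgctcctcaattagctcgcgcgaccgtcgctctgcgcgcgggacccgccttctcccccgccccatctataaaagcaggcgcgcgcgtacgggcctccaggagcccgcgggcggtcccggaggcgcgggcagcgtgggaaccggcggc
The windows of Irf3, Irf5, Irf7 and Irf9, and a second window each of Irf1 and Irf8, held neither core. A match is a string of letters in a reference and was not measured as a bound site, and its absence says nothing of sites elsewhere.

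All 7 IRF genes were higher in IFN-I–secreting tumors than in GFP tumors, over a wide range of sizes. Against GFP tumors, IFNα4 tumors had 7 of 7 genes called higher, in a comparison in which 65.4% of all tested genes were called and 31.3% were called higher. The median log2 fold change of the 7 genes was 1.52, beside 0.01 over all 15926 genes. For 6 of the 7, every IFNα4 tumor lay above every GFP tumor, which held for 8.5% of all tested genes. Irf7 led and Irf3 trailed this order.

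IFNα9 tumors also had 7 of 7 IRF genes called higher than GFP tumors, where 55.7% of all tested genes were called and 26.9% were called higher. Their median log2 fold change was 1.43, beside −0.00 over all tested genes, and for 6 of the 7 every IFNα9 tumor lay above every GFP tumor, as it did for 4.44% of tested genes. Both comparisons share the 10 GFP tumors and are not independent. With library totals in place of TMM, the split over all genes moved from 4281 higher and 4595 lower to 5051 higher and 3610 lower, and the median of all genes moved to 0.10. Irf3 was then at 0.33 (adjusted p = 0.00248).

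IFNα9 tumors differed from IFNα4 tumors for fewer IRF genes and in both directions. Irf1 was called higher, Irf5 and Irf7 were called lower, and the other 4 were not called, where 17.8% of all tested genes were called, 10.5% higher and 7.25% lower. The median log2 fold change was −0.24 over the 7 genes and −0.01 over all tested genes. For Irf7 and Irf9, every IFNα9 tumor lay below every IFNα4 tumor, which held for 0.741% of tested genes. In whole tumors, more cells of a type and more RNA per cell cannot be told apart. The leukocyte gene Ptprc (CD45) rose by 2.65 and 2.14 on the log2 scale in IFNα4 and IFNα9 tumors, and the ratios of Irf8 and Irf5 to it are given with the other ratios.

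**Figure D1:**
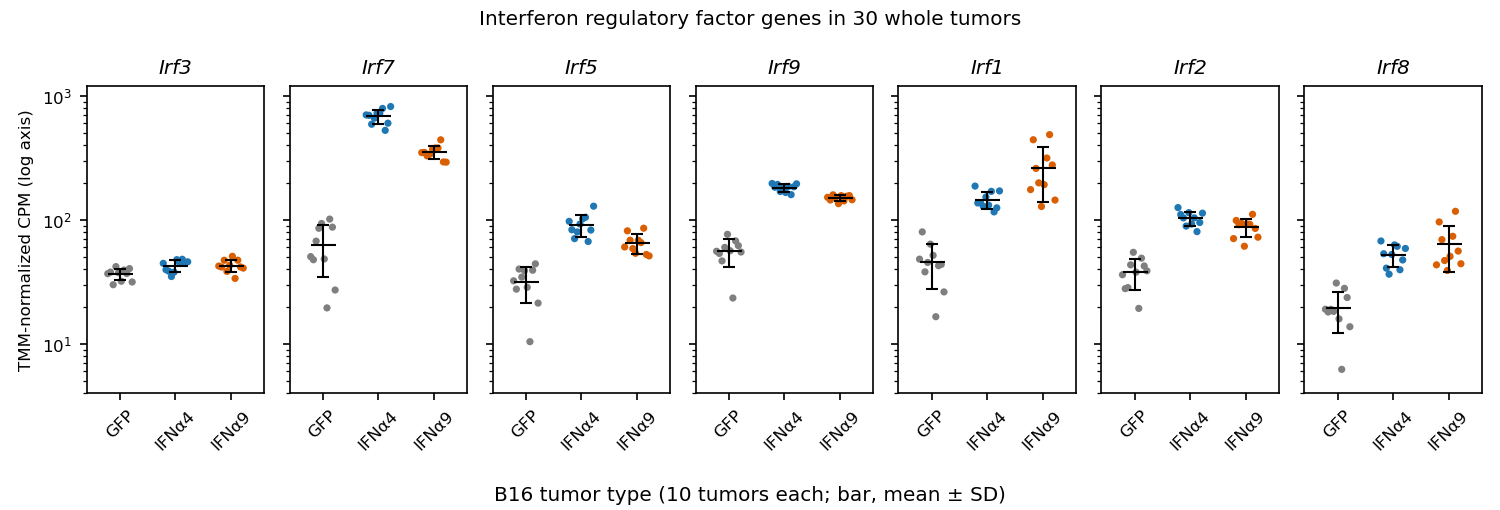
TMM-normalized CPM (log axis) of the 7 IRF genes in the 10 GFP, 10 IFNα4 and 10 IFNα9 tumors. Each point is 1 tumor and bars give the mean ± SD. Irf7 spans 19.5 to 102 CPM in GFP tumors and 527 to 820 CPM in IFNα4 tumors, whereas the Irf3 ranges of the 3 types overlap.

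**Figure D2:**
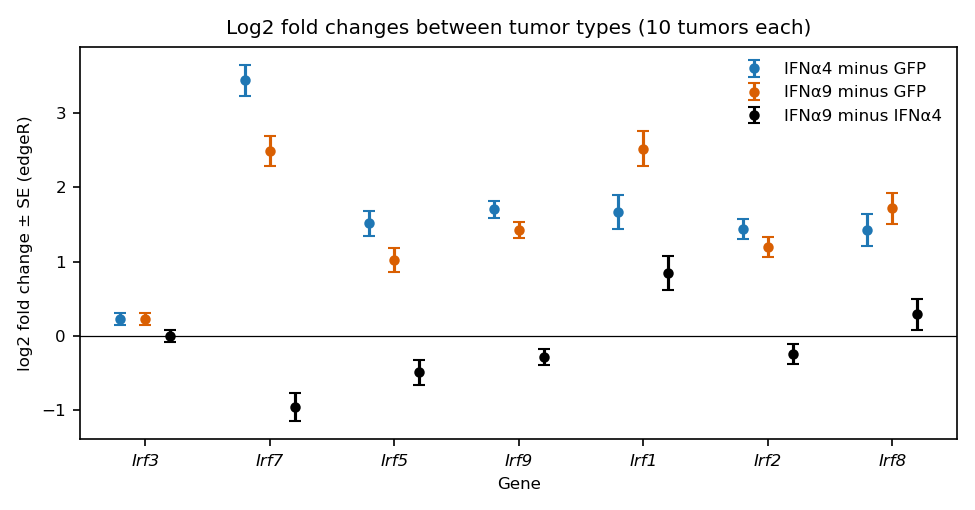
Log2 fold change ± SE of each IRF gene (edgeR) for IFNα4 minus GFP, IFNα9 minus GFP and IFNα9 minus IFNα4 tumors, 10 tumors per type. Irf7 has the highest point against GFP tumors with IFNα4 (3.44), Irf1 (2.52) and Irf7 (2.49) lie together at the top with IFNα9, and the black points (IFNα9 minus IFNα4) lie on both sides of 0.

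Irf3, the constitutive factor that is activated by phosphorylation, had the smallest differences of the family. The gene (ENSMUSG00000003184.15, chr7:44997648-45002848, + strand, GRCm38) had a median of 37.3 CPM in GFP tumors (range 30.035 to 42.0), 44.8 CPM in IFNα4 tumors (35.0 to 48.2) and 42.1 CPM in IFNα9 tumors (33.8 to 50.9). The 3 ranges overlapped, and 6 of 10 IFNα4 tumors and 5 of 10 IFNα9 tumors lay above the highest GFP tumor. Its log2 fold change was 0.23 ± 0.08 (SE) in both comparisons with GFP tumors (adjusted p = 0.0102 for IFNα4 and 0.0127 for IFNα9), or 1.17-fold. Between the IFN types it differed by −0.00, with a 95% interval from −0.15 to 0.15. Its coefficient of variation among tumors of 1 type was 10.7% to 11.4%.

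Irf7, which encodes the IFN-inducible factor that amplifies IFNα gene transcription, moved the most of the 7 with IFNα4. Located on the other strand of the same chromosome (ENSMUSG00000025498.15, chr7:141262706-141266481, − strand), it had a median of 59.0 CPM in GFP tumors (19.5 to 102). The median was 699 CPM in IFNα4 tumors (527 to 820) and 349 CPM in IFNα9 tumors (292 to 442). The lowest IFNα4 tumor thus lay above the highest IFNα9 tumor, and the lowest IFNα9 tumor above the highest GFP tumor. The rise over GFP tumors was 3.44 ± 0.21 on the log2 scale (10.9-fold, adjusted p = 2.03e-14) with IFNα4 and 2.49 ± 0.20 (5.60-fold, adjusted p = 2.12e-11) with IFNα9. Between the IFN types, Irf7 was at −0.96 ± 0.19 in IFNα9 tumors (0.516 of the IFNα4 level, adjusted p = 7.38e-04), and this call held in all 30 fits that left out 1 tumor. Spread was widest in GFP tumors, with a coefficient of variation of 45.3%, against 13.3% and 12.7% with IFNα4 and IFNα9.

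Irf5, which drives inflammatory cytokine genes in myeloid and B cells, rose in both IFN types and had a lower level with IFNα9. It lies on chromosome 6 (ENSMUSG00000029771.12, chr6:29526625-29541871, + strand), and 411 of its 2905 exonic bases face exons of Tnpo3 on the opposite strand, from which the stranded libraries can separate it only if the counting used strand. Its median was 33.4 CPM in GFP tumors (10.4 to 44.2), 87.9 CPM in IFNα4 tumors (67.0 to 129) and 63.1 CPM in IFNα9 tumors (51.3 to 85.7). No tumor of either IFN type fell into the GFP range, and 6 of 10 IFNα9 tumors lay below the lowest IFNα4 tumor. The rise was 1.52 ± 0.17 (adjusted p = 5.82e-09) with IFNα4 and 1.02 ± 0.17 (adjusted p = 8.09e-06) with IFNα9. The difference between the IFN types, −0.49 ± 0.16 (adjusted p = 0.0347), was near the threshold. It was no longer called with library totals (adjusted p = 0.0584), or without any 1 of IFNα4 tumors 1, 6, 7 and 10 or IFNα9 tumors 1, 4, 5, 9 and 10 (adjusted p up to 0.0799).

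Irf9, the DNA-binding subunit of ISGF3, rose in both IFN types and varied little within them. The gene (ENSMUSG00000002325.14, chr14:55603571-55610030, + strand) shares 123 of 5386 exonic bases with Rnf31 on the same strand, where reads of either cannot be told apart. Its median was 56.1 CPM in GFP tumors (23.5 to 76.5), 185 CPM in IFNα4 tumors (160 to 197) and 152 CPM in IFNα9 tumors (135 to 159). All 10 tumors of each type stood apart from those of the other types, and the gap between the IFN types was narrow. The coefficient of variation was 25.1% in GFP tumors, 6.98% with IFNα4 and 5.20% with IFNα9, the lowest values of the 7 genes in both IFN types. Irf9 rose by 1.71 ± 0.11 (adjusted p = 1.28e-13) with IFNα4 and by 1.43 ± 0.11 (adjusted p = 1.24e-11) with IFNα9. The difference of −0.28 ± 0.11 between the IFN types was not called (adjusted p = 0.0784, 95% interval −0.50 to −0.06). It was called by DESeq2 (adjusted p = 0.0445), in a fit of these 2 types alone (adjusted p = 1.91e-04) and without GFP tumor 7 (adjusted p = 0.00140).

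Irf1, an activator of antigen presentation and antiviral genes, rose as much as Irf7 in IFNα9 tumors within their errors and was the only one of the 7 called higher there than in IFNα4 tumors. Its position is chr11:53770014-53778374 on the + strand (ENSMUSG00000018899.16), and its promoter window is the first of those shown. The median was 44.6 CPM in GFP tumors (16.6 to 80.0), 137 CPM in IFNα4 tumors (116 to 187) and 229 CPM in IFNα9 tumors (128 to 487). Both IFN types stood clear of GFP tumors, and 7 of 10 IFNα9 tumors exceeded the highest IFNα4 tumor. IFNα9 tumors were spread widely, with a coefficient of variation of 46.6% against 16.1% in IFNα4 tumors, and tumors 8 and 2 were the highest at 487 and 443 CPM. Irf1 rose by 1.67 ± 0.23 (adjusted p = 2.88e-07) with IFNα4 and by 2.52 ± 0.24 (5.73-fold, adjusted p = 4.42e-10) with IFNα9. It was 1.80-fold higher with IFNα9 than with IFNα4 (log2 fold change 0.85 ± 0.22, adjusted p = 0.00795), and without any 1 tumor the difference was 0.70 to 0.95 and still called.

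Irf2, the partner that competes with IRF1 for its sites, rose in both IFN types without a called difference between them. On chromosome 8 (ENSMUSG00000031627.9, chr8:46739732-46847458, + strand), it had a median of 38.4 CPM in GFP tumors (19.4 to 54.8). The median was 104 CPM in IFNα4 tumors (80.4 to 126) and 91.8 CPM in IFNα9 tumors (61.3 to 111). Neither IFN type overlapped GFP tumors, and the ranges of the IFN types overlapped. The log2 fold changes against GFP tumors were 1.44 ± 0.13 (adjusted p = 1.85e-10) and 1.20 ± 0.13 (adjusted p = 1.60e-08) for IFNα4 and IFNα9. Their difference was −0.24 ± 0.13 (adjusted p = 0.212, 95% interval −0.50 to 0.01).

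Irf8, the myeloid and dendritic cell factor, had the lowest level per length of the 7 genes in each tumor type. Found on the same chromosome (ENSMUSG00000041515.9, chr8:120736358-120756694, + strand), it had a median of 18.7 CPM in GFP tumors (6.24 to 31.0), 53.0 CPM in IFNα4 tumors (36.5 to 67.6) and 53.5 CPM in IFNα9 tumors (39.1 to 117). Each IFN type lay above all GFP tumors, and 4 of 10 IFNα9 tumors lay above the highest IFNα4 tumor. The rise was 1.43 ± 0.21 (adjusted p = 1.09e-06) with IFNα4 and 1.72 ± 0.21 (adjusted p = 1.18e-07) with IFNα9. Between the IFN types it differed by 0.29 ± 0.21 (adjusted p = 0.363, 95% interval −0.11 to 0.69), and the difference was 0.15 without IFNα9 tumor 8. The 2 highest tumors, IFNα9 tumors 8 and 2 at 117 and 96.2 CPM, were also the highest in Irf1.

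Per kilobase of exon, the IRF genes overlapped from neighbor to neighbor in GFP tumors, whereas Irf7 led in IFNα4 tumors and Irf7 and Irf1 in IFNα9 tumors. In GFP tumors, Irf7 had a mean of 16.7 CPM per kb, followed by Irf1 (11.5), Irf5 (10.9), Irf3 (10.6), Irf9 (10.4), Irf2 (5.12) and Irf8 (2.74). Each neighbor in that order overlapped the next. In IFNα4 tumors, Irf7 reached 181 ± 24.1 CPM per kb (SD, n = 10) and stood above Irf1 (36.6), Irf9 (33.8) and Irf5 (31.3), which overlapped each other. Irf2 (13.9) and Irf3 (12.4) followed apart from these, and Irf8 (7.39) was lowest, apart from Irf3. In IFNα9 tumors, Irf7 (93.4 ± 11.8) and Irf1 (65.9 ± 30.7) overlapped and both stood above Irf9 (27.8), and Irf9 overlapped Irf5 (22.3). Irf3 (12.4), Irf2 (11.8) and Irf8 (9.03) were lowest, each overlapping its neighbor, and Irf5 stood apart from Irf3.

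The ratio of 2 genes within a tumor does not depend on library scaling, and 5 such ratios were compared over the 3 pairs of types by two-sided permutation tests (100000 resamples, Benjamini-Hochberg over 15 tests). They are ratios of counts, not scaled to gene length, and are compared only between tumor types, and 1 of the 5 is not reported here. The median ratio of the inducible Irf7 to the constitutive Irf3 was 1.77 in GFP tumors (0.496 to 2.74), 16.6 in IFNα4 tumors (10.9 to 19.1) and 8.29 in IFNα9 tumors (6.93 to 11.3). On the log2 scale, the ratio differed by 3.37 and 2.42 from GFP tumors with IFNα4 and IFNα9, and by −0.95 between the IFN types (each adjusted p = 7.50e-05). Thus 9 of 10 IFNα9 tumors lay below all IFNα4 tumors.

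The activator Irf1 rose relative to its competitor Irf2 in IFNα9 tumors. The median count ratio of Irf1 to Irf2 was 1.11 in GFP tumors (0.677 to 2.86), 1.43 in IFNα4 tumors (1.24 to 1.64) and 2.66 in IFNα9 tumors (1.99 to 4.47). All 10 IFNα9 tumors lay above all 10 IFNα4 tumors, with a difference of 0.98 on the log2 scale (adjusted p = 7.50e-05). Against GFP tumors the difference was 1.26 with IFNα9 (adjusted p = 2.06e-04) and 0.28 with IFNα4 (adjusted p = 0.161). The last was called without GFP tumor 2 (0.43, adjusted p = 0.00106), whose ratio was the highest of its type.

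Irf1 set against Irf7 placed IFNα4 tumors apart from the other types, a view picked once the levels were known and given with no test. The median ratio of Irf1 to Irf7 counts was 0.766 in GFP tumors (0.421 to 1.68), 0.210 in IFNα4 tumors (0.182 to 0.267) and 0.690 in IFNα9 tumors (0.344 to 1.27). Every IFNα4 tumor lay below every tumor of the other types.

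**Figure D3:**
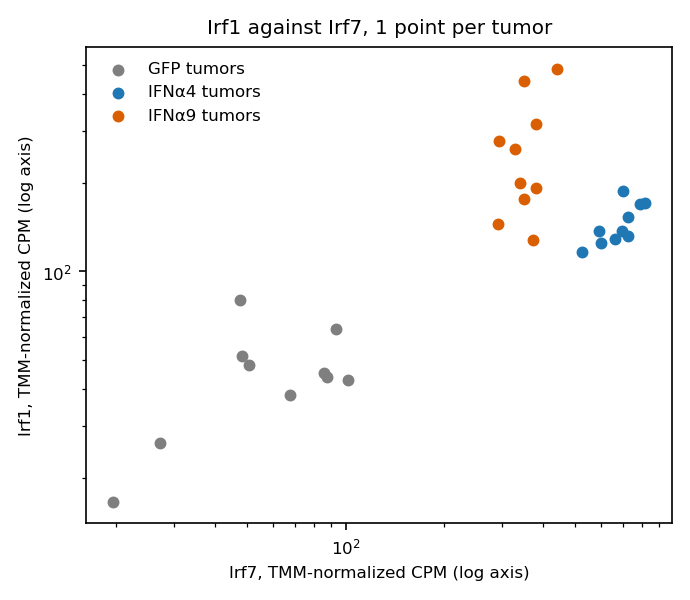
Irf1 against Irf7, both in TMM-normalized CPM on log axes, with 1 point per tumor and color for the tumor type. GFP tumors lie low on both axes, IFNα4 tumors farthest right (527 to 820 CPM of Irf7) and IFNα9 tumors between them on the Irf7 axis, spread from 128 to 487 CPM of Irf1.

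Irf8 and Irf5 were set against 1 leukocyte gene, Ptprc, which rose the most of the 7 leukocyte genes. The log2 fold changes of Irf8 (1.43 with IFNα4 and 1.72 with IFNα9) lay above those of 5 and 6 of the 7, respectively, and the medians of the 7 were 1.38 and 1.00, so the ratio concerns Ptprc alone. The ratio of Irf8 to Ptprc counts had a median of 0.258 in GFP tumors (0.148 to 0.362), 0.104 in IFNα4 tumors (0.0621 to 0.148) and 0.179 in IFNα9 tumors (0.103 to 0.263). IFNα4 tumors differed from GFP tumors by −1.23 on the log2 scale (adjusted p = 7.50e-05) and IFNα9 tumors by −0.47 (adjusted p = 0.0211). The ratio was 0.76 higher with IFNα9 than with IFNα4 (adjusted p = 5.67e-04). For Irf5 the median ratios were 0.421, 0.204 and 0.181. The log2 differences from GFP tumors for Irf5 were −1.15 and −1.10 (adjusted p = 7.50e-05 and 1.71e-04), and the IFN types differed from each other by 0.05 (adjusted p = 0.791).

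To see whether the IRF genes followed immune cell transcripts among tumors of the same type, each was correlated with a leukocyte score, the mean log2 CPM of Ptprc, Laptm5, Coro1a, Lcp1, Cd53, Arhgdib and Itgb2. The score was 6.69 ± 0.469 (SD, n = 10) in GFP tumors, 8.01 ± 0.246 in IFNα4 tumors and 7.74 ± 0.283 in IFNα9 tumors. The types were kept apart, which gave 21 relations, adjusted together (permutation tests with 100000 resamples, for which 1e-05 is the smallest p). Of these, 15 were called by Pearson's r (adjusted p under 0.05), none of them for Irf3. Of the 15, 6 were also called without the 2 tumors farthest from the median score (exact permutation test over the 8 tumors left), and the other 9 were not, with an r of 0.18 to 0.78 over those 8 tumors. The 6 are described by gene.

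Irf2 had the highest Pearson's r with the score in both IFN types, whereas by Spearman's rho Irf1 was higher in IFNα4 tumors (0.98). In IFNα9 tumors, Pearson's r was 0.95 (permutation p = 1e-05, adjusted p = 2.10e-04) and Spearman's rho 0.96 (p = 3.00e-05, adjusted p = 2.10e-04), with an r of 0.90 without the 2 tumors. In IFNα4 tumors, r was 0.95 (p = 5.00e-05, adjusted p = 5.25e-04) and rho 0.94 (p = 2.00e-04, adjusted p = 0.00105), with an r of 0.86 without them. In GFP tumors r was 0.79 with all tumors and 0.18 without the 2.

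Irf5 and Irf7 followed the score in GFP tumors. For Irf5 there, r was 0.95 (permutation p = 5.50e-04, adjusted p = 0.00289) and rho 0.98 (p = 3.00e-05, adjusted p = 2.10e-04), and r was 0.94 without the 2 tumors. In IFNα9 tumors r was 0.79 (p = 0.00625, adjusted p = 0.0158) and rho 0.75 (p = 0.0176, adjusted p = 0.0370), with an r of 0.89 without them. In IFNα4 tumors r for Irf5 was 0.67 (permutation p = 0.0329, adjusted p = 0.0461) and rho 0.68 (p = 0.0343, adjusted p = 0.0558), with an r of 0.61 without them, which was not called. For Irf7 in GFP tumors, r was 0.87 (p = 0.00176, adjusted p = 0.00616) and rho 0.90 (p = 8.30e-04, adjusted p = 0.00349), with an r of 0.85 without them. With Ptprc alone in place of the score, neither Irf7 in GFP tumors (r of 0.68) nor Irf5 in IFNα9 tumors (0.62) was called, whereas Irf5 in GFP tumors was (0.83). In IFNα4 tumors, r for Irf7 was 0.69 (permutation p = 0.0254, adjusted p = 0.0381) and rho 0.70 (p = 0.0298, adjusted p = 0.0558), with an r of 0.60 without the 2 tumors, which was not called. In IFNα9 tumors, r for Irf7 was 0.33 (p = 0.358, adjusted p = 0.418) and rho 0.31 (p = 0.387, adjusted p = 0.478). Without the 2 tumors farthest from the median score, that r was 0.77 (exact permutation p = 0.0261, adjusted p = 0.0686).

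Irf1 followed the score in IFNα4 tumors, with an r of 0.89 (permutation p = 2.00e-04, adjusted p = 0.00140), a rho of 0.98 (p = 3.00e-05, adjusted p = 2.10e-04) and an r of 0.80 without the 2 tumors. In IFNα9 tumors its r was 0.77 (permutation p = 0.00864, adjusted p = 0.0160) and its rho 0.79 (p = 0.00851, adjusted p = 0.0199), with an r of 0.63 without the 2 tumors, which was not called. In GFP tumors its r was 0.48 (p = 0.162, adjusted p = 0.1995) and its rho 0.01 (p = 1.00). For Irf8, r was 0.88 in GFP, 0.77 in IFNα4 and 0.76 in IFNα9 tumors (permutation p = 0.00235, 0.00679 and 0.00912), with a rho of 0.83, 0.68 and 0.82. For Irf9, r was 0.82, 0.85 and 0.52 (permutation p = 0.0173, 0.00106 and 0.126), with a rho of 0.66, 0.83 and 0.36. None of these 6 relations was called both with and without the 2 tumors. Irf3 had an r of −0.14 in GFP, 0.01 in IFNα4 and 0.11 in IFNα9 tumors (p = 0.720, 0.968 and 0.767) and a rho of 0.03, −0.14 and 0.10 (p = 0.946, 0.705 and 0.786).

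**Figure D4:**
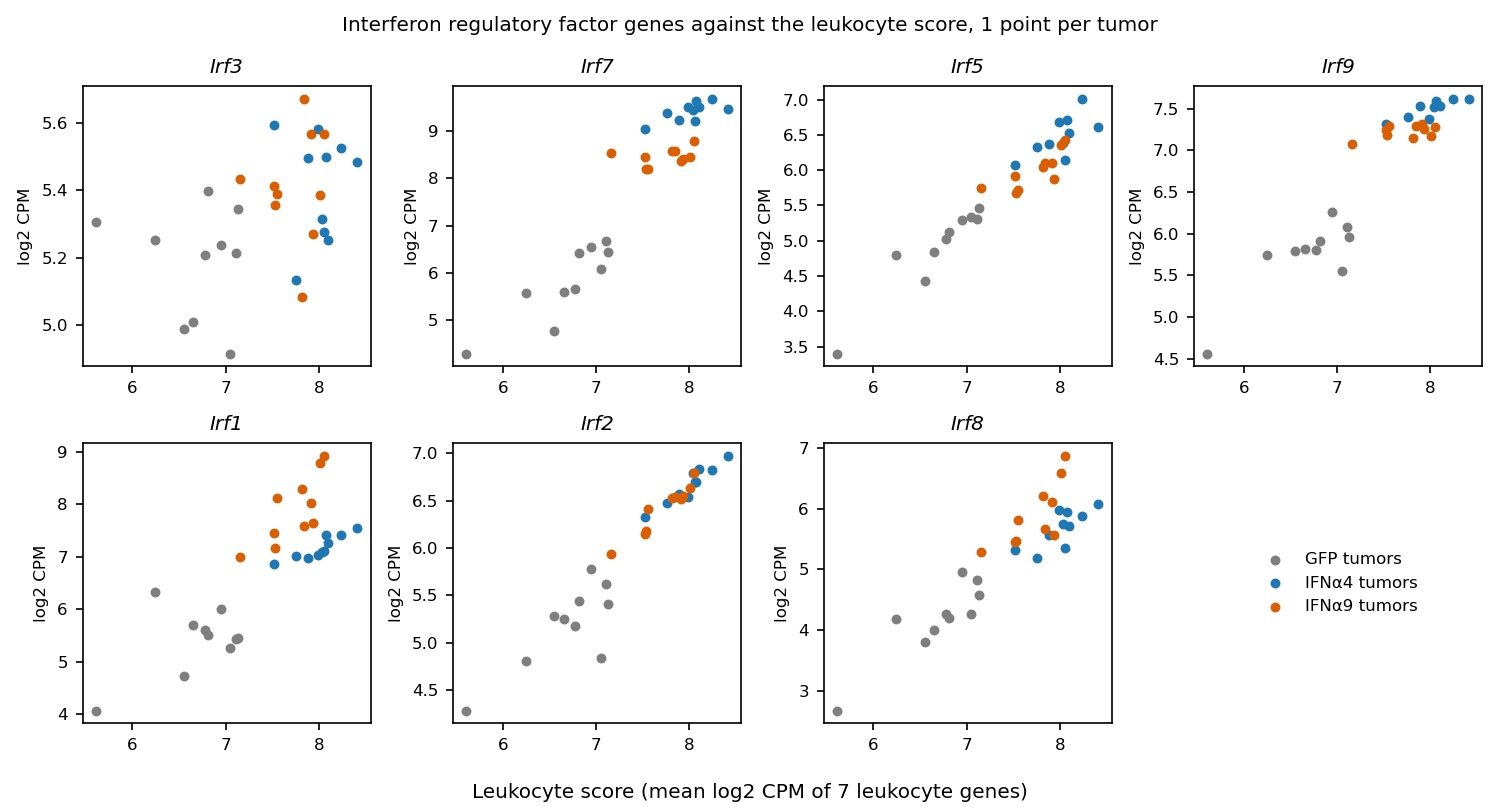
Log2 CPM of each IRF gene (vertical axes, separate scales) against the leukocyte score (mean log2 CPM of 7 leukocyte genes), with 1 point per tumor and color for the tumor type. Irf2 rises with the score within both IFN types (r of 0.95 in each), whereas Irf3 shows no such rise, and GFP tumor 7 lies far left at a score of 5.61.

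Among themselves, the IRF genes other than Irf3 tended to vary together within a tumor type, given here as a description over 10 tumors per type that share libraries and depth. The mean of the 3 within-type Pearson correlations of log2 CPM was highest for Irf5 and Irf8 (0.87) and for Irf5 and Irf7 (0.85). Pairs with Irf3 had means of 0.03 to 0.21. Irf1 and Irf8 reached 0.97 in IFNα9 tumors, beside 0.76 in GFP and 0.73 in IFNα4 tumors. Irf7 and Irf9, both ISGs, had values of 0.79 in GFP, 0.45 in IFNα4 and −0.11 in IFNα9 tumors.

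**Figure D5:**
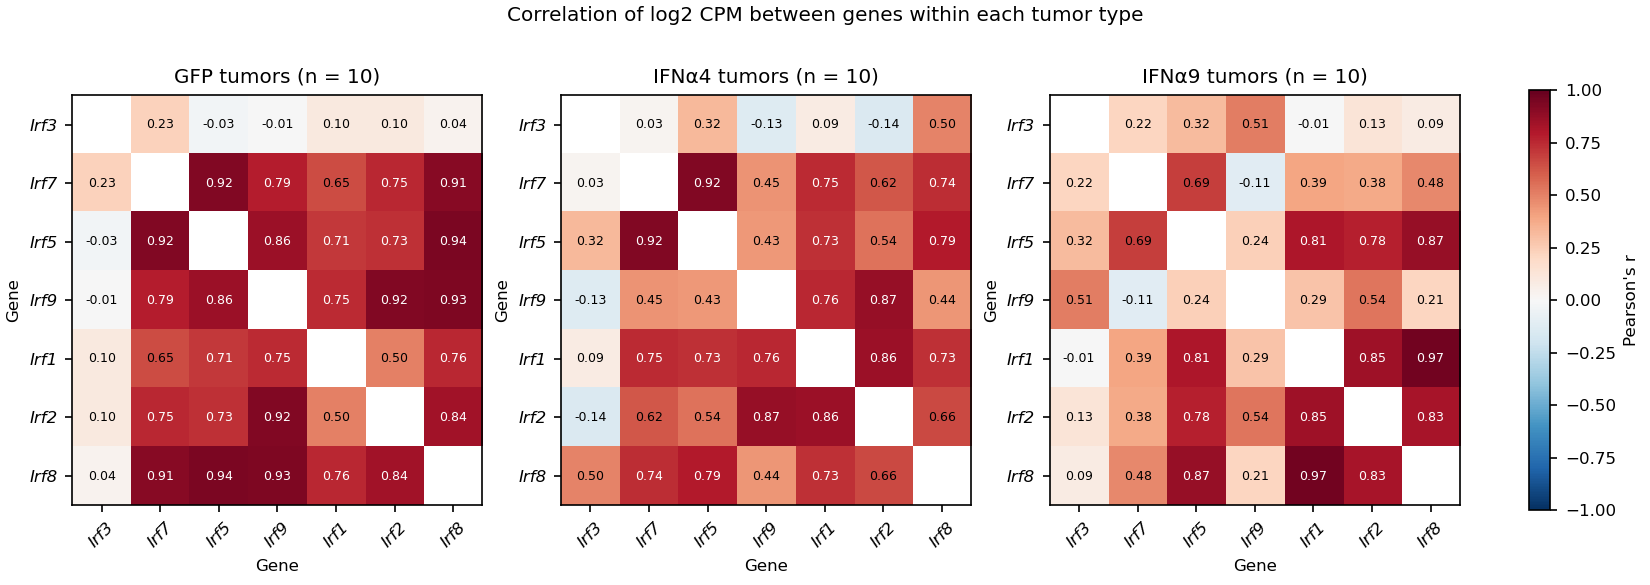
Pearson's r of log2 CPM between each pair of the 7 IRF genes within GFP, IFNα4 and IFNα9 tumors (10 tumors each), on a color scale from −1 to 1. Pairs with Irf3 are paler than most other cells, from −0.14 to 0.51, and Irf1 with Irf8 in IFNα9 tumors has the highest value of all (0.97).

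Of all tested genes, those whose pattern was most like each IRF gene were ranked by the mean of the 3 within-type Pearson correlations, over 10 tumors each. Irf1 was most like Gm12250 (0.91), Slamf8 (0.90) and Ifi47 (0.90). Irf2 had Sp110 (0.95), Samhd1 (0.95) and Lcp2 (0.94), and Irf7 had Oasl1 (0.95), Oas1a (0.91) and Tnfaip8l2 (0.89). Nearest to Irf5 were Hk3 (0.96), Trafd1 (0.93) and Lrrc25 (0.93), and nearest to Irf8 were Sh2d2a, H2-Q7 and Parvg (0.91, 0.90 and 0.90). The values were lower for Irf9, with Zfp263 (0.85), Dclre1c (0.85) and Slfn4 (0.84). Irf3 stood with Snrnp70 (0.87), Gm16581 (0.78) and Srrt (0.78).

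Of 18 tested genes for sensors and adaptors that lead to IRF3, IRF5 and IRF7, 11 were called higher in IFNα4 tumors and 7 were not called (median log2 fold change 0.67), and 10 were called higher in IFNα9 tumors and 8 were not called (median 0.40). Over all tested genes, 65.4% were called and 31.3% called higher with IFNα4, and 55.7% were called and 26.9% called higher with IFNα9, which are also the shares to set beside the counts of the next lists. The largest rises with IFNα4 were in Tlr9, an endosomal DNA receptor upstream of IRF7 (3.80), in the RNA sensors Ifih1 (2.80) and Ddx58 (2.49), and in Tlr7, an RNA receptor of endosomes (1.88). Their values with IFNα9 were 2.94, 2.32, 2.16 and 1.16. Between the IFN types, 17.8% of all tested genes were called, 10.5% higher and 7.25% lower with IFNα9. Of the 18 here, 5 were lower with IFNα9 and 13 were not called (median −0.13). These were Tlr9 (−0.85), Tlr7 (−0.72), the adaptor Myd88 (−0.63), Ifih1 (−0.48) and Slc15a4, a lysosomal transporter needed for TLR7 and TLR9 signaling (−0.44). Irf7 and Irf5 were the IRF genes called lower in the same comparison, Irf5 near the threshold. A link between them and these 5 genes was not tested. Mavs and Traf3, adaptors on the path to IRF3, were not called in any comparison, and neither were Tlr4, Ticam1, Irak1 and Irak4. Tlr3, Cgas and Ikbke of the same list were called higher with IFNα4 (1.69, 1.10 and 0.84) and with IFNα9 (1.46, 0.95 and 0.88).

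In the receptor and JAK-STAT group that feeds IRF9, 5 of 7 genes tested were called higher in IFNα4 tumors and 2 were not called. In IFNα9 tumors, 5 were higher and Socs3 was lower (medians 0.60 and 0.47 for IFNα4 and IFNα9). Of all tested genes, 65.4% and 55.7% were called in these comparisons, and 31.3% and 26.9% were called higher. Usp18, an ISG that restrains the receptor, had log2 fold changes of 3.72 and 2.98, and the kinases Tyk2 and Jak1 had 0.64 and 0.60 with IFNα4. Irf9, at 1.71 with IFNα4, lay between Usp18 and Tyk2. With IFNα9 against IFNα4, Usp18 (−0.74) and Socs3 (−0.56), both feedback inhibitors, were called lower and the other 5 were not called. In that comparison 17.8% of all tested genes were called and 7.25% were called lower.

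Among genes known to be regulated by IRF1, 6 of 7 tested were called higher in each IFN type (medians 2.17 and 2.10), and Il12b was not called. The guanylate-binding protein gene Gbp2 rose by 2.78 with IFNα4 and 3.49 with IFNα9, and the class I regulator Nlrc5, the peptide transporter Tap1 and the immunoproteasome gene Psmb9 by 2.31, 2.22 and 2.17 with IFNα4. Against IFNα4, IFNα9 tumors had 1 of 7 higher and 1 lower, beside 10.5% and 7.25% of all tested genes. Irf1 itself was at 0.85 there. Nos2, the inducible nitric oxide synthase, was higher by 1.04 (adjusted p = 0.0449), and the cytokine gene Il15 was at −0.63 (adjusted p = 0.00700).

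Of 6 partners of IRF8 in myeloid development that were tested, 3 were called higher in each IFN type and 3 were not called (medians 0.42 and 0.48), beside 31.3% and 26.9% of all tested genes called higher with IFNα4 and IFNα9. Between the IFN types, edgeR and DESeq2 each called 0 of 6, where edgeR called 17.8% of all tested genes. Of the 6, 2 had an unadjusted edgeR p under 0.05, both lower with IFNα9. The 3 that rose were Ikzf1, an early lymphoid and myeloid factor (2.10 and 1.61), Spi1, which encodes PU.1 (1.23 and 0.80), and Zeb2 (0.54 and 0.58).

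Marker genes of the cells that express IRF genes moved with the tumor types. Of 7 leukocyte genes, 6 were called higher and 1 (Arhgdib) lower with IFNα4, and 6 higher with IFNα9. Their summed level was 694 to 1263 CPM in GFP tumors, 1462 to 3009 CPM in IFNα4 tumors and 1124 to 2152 CPM in IFNα9 tumors. Genes of type 1 conventional dendritic cells, which need IRF8, summed to 129 to 229, 137 to 187 and 188 to 275 CPM, most of it from Cadm1 (means of 137, 109 and 169 CPM). Of these 5 genes, 4 were higher and Cadm1 lower with IFNα4, 5 were higher with IFNα9, and 2 (Xcr1 and Cadm1) were higher with IFNα9 than with IFNα4. Between the IFN types, 10.5% of all tested genes were called higher with IFNα9 and 7.25% lower. Plasmacytoid dendritic cell genes, from cells rich in IRF7 and IRF8, summed to 11.2 to 75.1, 24.5 to 50.0 and 8.55 to 54.1 CPM, most of it from Cox6a2 (means of 28.4, 26.3 and 14.998 CPM), which muscle also expresses. Siglech, Ccr9 and Klk1 were higher with IFNα4 (1.73 for Ccr9 and 4.21 for Klk1) and lower with IFNα9 than with IFNα4, and Ccr9 and Klk1 were higher with IFNα9 than in GFP tumors. All 3 had low levels, with means of 0.931, 1.20 and 0.154 CPM in GFP tumors and 3.09, 4.03 and 3.02 CPM in IFNα4 tumors. Cox6a2 was lower with IFNα9 than in GFP tumors (−0.92), as were the muscle genes Ckm (−0.98) and Acta1 (−1.19).

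The other marker lists were as follows. T cell genes were higher in 5 of 5 with IFNα4 and 4 of 5 with IFNα9 (sums of 2.32 to 55.5, 48.6 to 104 and 18.0 to 69.2 CPM). NK cell genes were higher in 3 of 3 with each IFN type, with sums of 1.962 to 7.53, 24.9 to 94.2 and 15.8 to 68.1 CPM. Of 4 macrophage genes, 2 were higher and Mrc1 lower with IFNα4, and 2 were higher with IFNα9 (sums of 193 to 878, 492 to 786 and 463 to 938 CPM). The 5 B cell genes summed to 0.758 to 3.05, 3.51 to 8.92 and 1.963 to 4.54 CPM, and of the 2 tested Pax5 was higher in both IFN types. All 3 melanocyte genes tested were lower in both, with sums of 7214 to 22820 CPM in GFP, 2157 to 3630 CPM in IFNα4 and 3367 to 8916 CPM in IFNα9 tumors. All 3 skeletal muscle genes were lower with IFNα9 than in GFP tumors (sums of 561 to 4844 and 1504 to 8412 CPM). The fibroblast gene Pdgfra was higher with IFNα9 and the keratinocyte gene Krt5 with IFNα4, and the other gene tested in each of these lists was not called. No marker of these lists was at 0 in every tumor of a type, and the part of each cell type in the IRF levels was not tested.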

How the data were processed

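Whole tumors (10 per type) were sequenced as 50-base single-end reads of stranded mRNA libraries. The authors checked reads with FastQC 0.11.3, aligned them with HISAT2 2.0.4 and counted reads per gene with summarizeOverlaps, and the deposited table holds raw counts, with 1 column per tumor. The genome is named mm10 in the submitters' processing notes and mm11 in the study's methods, and the counting mode is not given in the sources used here. Of 39676 identifiers, 39495 were found in GENCODE M21 on GRCm38, from which symbols, positions and exon lengths were taken.

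The 15926 genes whose mean over tumors reached 10 counts were fitted over all 30 tumors with TMM and edgeR 4.0.16 (R 4.3.3, glmQLFit and glmQLFTest), with tumor type as the term and Benjamini-Hochberg adjustment, and calls were made at 0.05. The common biological coefficient of variation was 0.281. Log2 CPM used a prior count of 2 and ratios 0.5 added to each count. The scripts were tested on simulated data. Replicates are biological by their labels, no pair of columns was identical, and with 10 tumors per type p-values measure the spread between these tumors. Same-numbered tumors did not deviate together (correlations from −0.267 to 0.302, 4 of 30 pairs over 0.1), so no pairing was used.

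The IRF genes and the gene lists were chosen with earlier results of these data known. The text names the 7 IRF genes, the 3 genes most like each, the partners in ratios, and per list at most 4 genes with the largest absolute log2 fold change between IFNα4 and GFP tumors or with a stated role beside an IRF gene. Other list genes were named after their values were seen. A planned ratio for Irf9 and some genes of the lists are not reported here. Alternatives were DESeq2 1.42.0 (its size factors, and its Wald test), library totals, filterByExpr, no filter, the 2 compared types alone, the replicate number as a block, and leaving out each tumor. Promoter windows came from RefSeq (GRCm38.p6), and protein sequences were not used here. Other tools were Python 3.11.15, pandas 2.3.3, numpy 2.4.6, scipy 1.17.1 and matplotlib 3.10.9.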

Additional observations from a re-analysis of the deposited data

Results flagged for a closer look

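Each of 39 groups of 10 values (the log2 CPM of the IRF genes, the leukocyte score and the log2 ratios, by tumor type) was searched for a value set apart from the rest by more of the whole range than Dixon's 95% critical value allows. Chance alone gives about 1 in 20, or 1.95 here, and 4 were found. GFP tumor 7 was the lowest of its type for Irf5 (3.399 log2 CPM, next 4.42), Irf8 (2.67 log2 CPM, next 3.80) and Irf9 (4.56 log2 CPM, next 5.55). The same tumor had the lowest leukocyte score and the smallest TMM factor, and their part in these values was not tested. The log2 ratio of Irf1 to Irf2 was 1.52 in GFP tumor 2, the highest of its type, with the next tumor at 0.45.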

How the results depend on the processing

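All 7 IRF genes were called higher in both comparisons with GFP tumors under DESeq2's size factors and Wald test, library totals, filterByExpr, no filter, the 2 types alone, the replicate block and each of 30 fits without 1 tumor. Between the IFN types, 2 to 4 of the 7 were called without 1 tumor. The replicate block, whose numbers mark no pairs (2 of 30 tumors correlated best with their own number), called 2, losing Irf5 (−0.51, adjusted p = 0.0716), and changed no other call. Irf5 was also lost with library totals, and Irf9 was gained by DESeq2 and with the 2 types alone. Without 1 tumor, Irf5 ranged from −0.54 to −0.42, and Irf9 from −0.30 to −0.24. Irf3 differed between the IFN types by −0.00, and its sign turned with library totals (0.022), filterByExpr (0.026), the replicate block (0.00081) and in 15 of 30 fits without 1 tumor (−0.030 to 0.040). The ratio of Irf1 to Irf2 between IFNα4 and GFP tumors was 0.20 to 0.43 without 1 tumor, and that of Irf5 to Ptprc between the IFN types was −0.043 to 0.11. A prior count of 2 changed no ratio's call. Over all genes, a fit of IFNα9 and IFNα4 tumors alone called 4332 in place of 2833. The causes were not tested.

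For the leukocyte score, leaving out the 2 tumors farthest from the median left r at 0.63 for Irf1 in IFNα9 tumors, 0.18 for Irf2, 0.78 for Irf8 and 0.27 for Irf9 in GFP tumors, and 0.61 for Irf5, 0.60 for Irf7, 0.64 for Irf8 and 0.69 for Irf9 in IFNα4 tumors, and at 0.68 for Irf8 in IFNα9 tumors, none of them called. Irf3 in GFP tumors turned to 0.36 there, and to 0.36 with library totals. With Ptprc in place of the score, r was not called for Irf5 in IFNα4 (0.30) and IFNα9 tumors (0.62), for Irf7 in GFP (0.68) and IFNα4 tumors (0.39) or for Irf8 in IFNα4 tumors (0.51), and Irf3 in IFNα4 tumors turned to −0.22. Each IRF gene had at least 70 counts in every tumor, and each relation rests on 10 tumors.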

Other observations

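Irf4, another gene of the same family, had log2 fold changes of 0.83 (adjusted p = 0.00390) with IFNα4 and 1.08 (adjusted p = 4.64e-04) with IFNα9 against GFP tumors. Between the IFN types its value was 0.25 (adjusted p = 0.523). Irf2bp1, whose protein is a corepressor that binds IRF2, was lower in both IFN types (−0.49 and −0.48), whereas Irf2bp2 was higher with IFNα4 (0.26).

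IFN-I genes other than those in the vectors, targets of IRF3 and IRF7, had few counts. Ifnb1 had 0 to 3 counts per tumor in GFP tumors, 0 to 3 with IFNα4 and 0 to 4 with IFNα9. Of 17 IFN-I genes, only Ifna4 and Ifna9, which the vectors encode, passed the filter. Ifna14 had 1 to 7 counts in each of the 10 IFNα9 tumors and Ifna5 up to 12 in 9 of them, and both were at 0 in all GFP and IFNα4 tumors. Ifna6 had up to 13 counts in 8 of 10 IFNα4 tumors, up to 5 in 5 IFNα9 tumors and 0 in all GFP tumors. The IFNα genes are close copies of each other, and the counting could assign reads of 1 to another, which was not tested. Ifngr1, a subunit of the IFNγ receptor, was higher with IFNα4 (0.56), and Ifngr2, its other subunit, was lower with IFNα9 than in GFP tumors (−0.19) and in IFNα4 tumors (−0.30).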
